A study of Homo sapiens with 48 samples.

Results

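The genes described here build the mitotic spindle or shape mitotic chromosomes: SMC4, TOP2A, MKI67, TPX2, NUSAP1, PLK1, BIRC5 and CENPF. They were taken by name from tables of knockout abundance and are 8 of the 327 genes in those tables, all 8 with a value in every column. They come from a pooled CRISPR screen, in which most infected cells carry a single guide RNA and the guides are counted by sequencing before and after growth. The 3 human lines, all squamous carcinomas made to express Cas9 from a lentivirus, were SCC-13 (written SCC13 here), from skin, CAL27, from tongue, and A-431 (A431), an epidermoid carcinoma line. The groups were 16 SCC13 tumors, 10 CAL27 tumors, 8 A431 tumors, 2 CAL27 cultures and 2 A431 cultures, and each group had 2 initial samples of its own as the starting point. All cells had been selected with blasticidin for Cas9 and with puromycin for the guide library. Cultures were kept for 3 weeks. Tumors grew for about 2 months from cells in Matrigel in the rear flanks of mice, NOD.Cg-Prkdcscid Il2rgtm1Wjl/SzJ mice for SCC13 and SHO mice for CAL27 and A431, so that host strain and line cannot be told apart for SCC13. No SCC13 cultures were analysed here.

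In mitosis, condensin and topoisomerase II compact and untangle the replicated chromosomes, and Ki-67 coats their surface. Microtubules then form a spindle with the help of nucleation and bundling factors such as TPX2 and NUSAP1. The kinase PLK1 and the chromosomal passenger complex, of which survivin (BIRC5) is a part, drive entry into mitosis and correct faulty attachments, and CENPF sits on the outer kinetochore, where microtubules attach. A cell that loses a gene it needs for division leaves fewer descendants, so the guides against that gene become rarer.

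The deposited values are log fold changes per gene and tumor or culture, relative to the non-targeting guides, which stand at 0 in all 38 columns. No source used here gives the base of the logarithm, and a value is therefore written in log units and never as a fold. Each column was centred on its median gene, and negative values are read as loss of the knockout. Values below are relative to the median gene unless they are said to be relative to the non-targeting guides. As deposited, the median gene lay between -2.67 and 0.53 in SCC13 tumors, between -1.50 and -0.56 in CAL27 tumors, between -0.55 and -0.07 in A431 tumors, at -0.49 and -0.47 in the CAL27 cultures and at -0.37 and -0.36 in the A431 cultures. The spread of a column (SD over genes) was 1.89 to 2.87 in SCC13 tumors, 1.09 to 2.23 in CAL27 tumors, 0.42 to 1.34 in A431 tumors, and 0.50 to 0.59 in the cultures. Read depth is unknown, because the tables hold no counts.

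A feature of the SCC13 table bears on the members. In many pairs of SCC13 tumors, groups of at least 4 genes differed between the tumors by exactly the same amount to 6 decimals, and such values are called shared offsets here. A gene whose guides had no reads in either tumor would be tied in this way, and its value would then be a bound. Whether that was so was not tested. Of the SCC13 tumors, 14 held between 59 and 145 genes at a shared offset, while value column 5 held 13 and value column 8 held 8. In CAL27 tumors the number was 0 to 16, and in A431 tumors it was 0. In SCC13 tumors BIRC5 and TPX2 were at a shared offset in 14 of 16 tumors each, SMC4 in 13, PLK1 in 12, CENPF in 6 and TOP2A in 3. MKI67 and NUSAP1 never were.

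**Figure D1:**
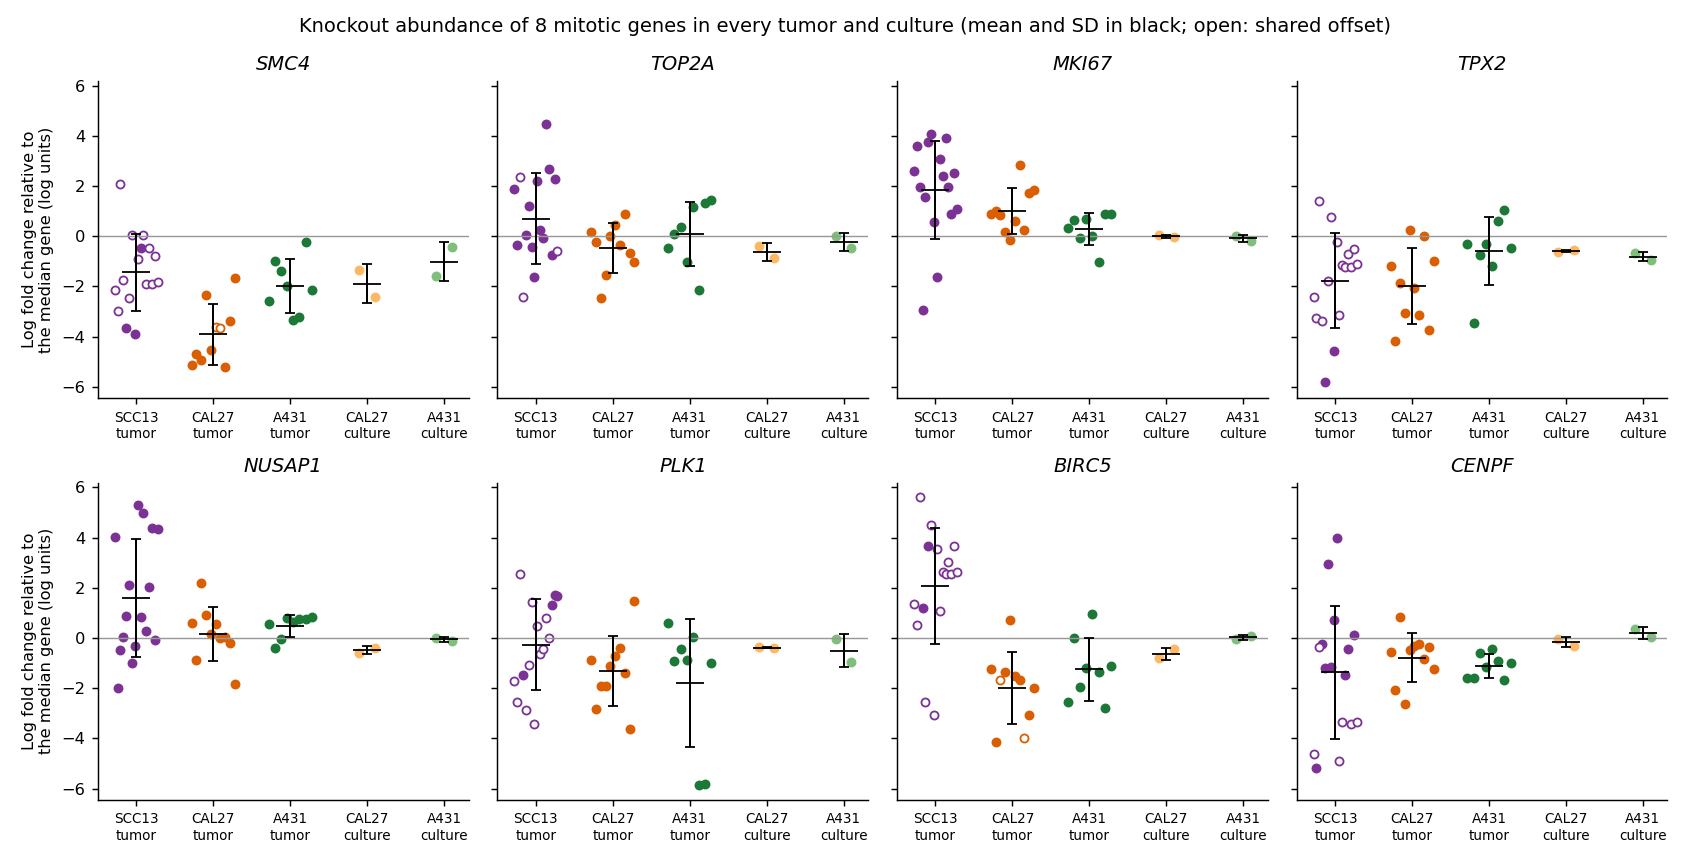
Log fold change relative to the median gene (log units) of each gene's knockout in every tumor and culture, with SCC13, CAL27 and A431 tumors followed by CAL27 and A431 cultures. Points are single tumors or cultures, open where the value is a shared offset, and black bars give the mean and SD. All CAL27 and A431 tumors lie below 0 for SMC4, and 14 of 16 SCC13 tumors lie above 0 for BIRC5, 12 of them as shared offsets.

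The loss of SMC4 relative to the median gene was past the threshold in tumors of all 3 lines and in CAL27 cultures. Relative to the non-targeting guides it passed in A431 cultures as well (-1.37, limma adjusted p = 0.0160), where 41.6% of all genes were lower. SMC4 (ENSG00000113810, chr3:160117062-160152742, plus strand, GRCh37) encodes an ATPase subunit common to both condensin complexes. In SCC13 tumors its values were lowest at -3.88, with a median of -1.77 and a highest value of 2.10. In CAL27 tumors they ran from -5.20 over a median of -4.09 to -1.64, and in A431 tumors from -3.32 over -2.05 to -0.22. The CAL27 cultures were at -1.34 and -2.42, and the A431 cultures at -1.57 and -0.45. All 10 CAL27 tumors, all 8 A431 tumors and all 4 cultures thus lay below the median gene, as did 13 of 16 SCC13 tumors. The mean was -1.43 ± 1.53 in SCC13 tumors (SD, n = 16, limma adjusted p = 0.00547), -3.91 ± 1.21 in CAL27 tumors (n = 10, limma adjusted p = 9.30e-08) and -1.97 ± 1.08 in A431 tumors (n = 8, limma adjusted p = 0.000805). It was -1.88 ± 0.76 in CAL27 cultures (n = 2, limma adjusted p = 0.0403) and -1.01 ± 0.79 in A431 cultures (n = 2, limma adjusted p = 0.114). Counted from the lowest mean, SMC4 ranked 4 of 327 genes in CAL27 tumors, 7 in A431 tumors, 9 in CAL27 cultures, 22 in A431 cultures and 62 in SCC13 tumors. In the SCC13 tumors of value columns 5 and 8, which have the fewest shared offsets, SMC4 stood at -3.64 and -3.88.

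TOP2A passed in no table relative to the median gene, except in CAL27 cultures with a robust prior (-0.63, limma adjusted p = 0.0482). It encodes topoisomerase II alpha, which passes 1 DNA duplex through another to untangle sister chromatids (ENSG00000131747, chr17:38544777-38574148, minus strand, GRCh37). Its values ran from -2.41 over a median of 0.16 to 4.46 in SCC13 tumors, from -2.47 over -0.28 to 0.88 in CAL27 tumors, and from -2.15 over 0.23 to 1.44 in A431 tumors. Cultures of CAL27 were at -0.38 and -0.88 and the A431 cultures at 0.02 and -0.48. Tumors of each line thus lay on both sides of the median gene. The mean was 0.70 ± 1.82 in SCC13 tumors (limma adjusted p = 0.221), -0.48 ± 0.99 in CAL27 tumors (limma adjusted p = 0.275) and 0.09 ± 1.26 in A431 tumors (limma adjusted p = 0.867). It was -0.63 ± 0.35 in CAL27 cultures (limma adjusted p = 0.0742) and -0.23 ± 0.35 in A431 cultures (limma adjusted p = 0.425). Relative to the non-targeting guides, TOP2A was lower in CAL27 tumors at -1.29 (limma adjusted p = 0.00296), in CAL27 cultures at -1.11 (limma adjusted p = 1.08e-10) and in A431 cultures at -0.59 (limma adjusted p = 0.0335).

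MKI67 knockouts were higher than the median gene in SCC13 and CAL27 tumors, and in tumors of each line their mean lay near the non-targeting guides. MKI67 encodes Ki-67, the proliferation marker that covers mitotic chromosomes and keeps them apart (ENSG00000148773, chr10:129894923-129924687, minus strand, GRCh37). Its values ran from -2.92 over a median of 2.18 to 4.07 in SCC13 tumors, from -0.16 over 0.86 to 2.84 in CAL27 tumors, and from -1.02 over 0.48 to 0.89 in A431 tumors. Cultures of CAL27 were at 0.04 and -0.05 and the A431 cultures at 0.01 and -0.17, all close to the median gene. The knockout stood above the median gene in 14 of 16 SCC13 tumors (mean 1.83 ± 1.94, limma adjusted p = 0.000651), in 9 of 10 CAL27 tumors (1.00 ± 0.91, limma adjusted p = 0.0165) and in 6 of 8 A431 tumors (0.30 ± 0.64, limma adjusted p = 0.388). Relative to the non-targeting guides the means were 0.22 in SCC13 tumors (limma adjusted p = 0.710), 0.19 in CAL27 tumors (limma adjusted p = 0.632) and 0.02 in A431 tumors (limma adjusted p = 0.962). On that scale the cultures lay lower, at -0.48 in CAL27 (limma adjusted p = 6.33e-05) and -0.45 in A431 (limma adjusted p = 0.0335). The higher calls thus hold against the median gene and not against the non-targeting guides.

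TPX2 was the 1 member lower past the threshold in the cultures of both lines. It encodes a factor that nucleates spindle microtubules around chromosomes and activates the kinase Aurora A (ENSG00000088325, chr20:30327074-30389608, plus strand, GRCh37). The CAL27 cultures stood at -0.63 and -0.55 (limma adjusted p = 0.0201) and the A431 cultures at -0.67 and -0.94 (limma adjusted p = 0.0275), so that the replicate cultures lay close together. Tumor values ran from -5.81 over a median of -1.22 to 1.40 in SCC13, from -4.17 over -1.95 to 0.27 in CAL27, and from -3.45 over -0.40 to 1.06 in A431. The mean fell to -1.77 ± 1.90 in SCC13 tumors (14 of 16 below the median gene, limma adjusted p = 0.000890) and to -1.99 ± 1.52 in CAL27 tumors (8 of 10, limma adjusted p = 0.000563). In A431 tumors it was -0.61 ± 1.36 (6 of 8, limma adjusted p = 0.274). The lowest TPX2 values of SCC13, -5.81 and -4.59, belonged to value columns 5 and 8, where TPX2 was not at a shared offset.

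NUSAP1 rose relative to the median gene in SCC13 tumors and fell in CAL27 cultures. It encodes a protein that bundles spindle microtubules near chromosomes (ENSG00000137804, chr15:41612992-41673248, plus strand, GRCh37). Its values ran from -2.00 over a median of 0.87 to 5.29 in SCC13 tumors, from -1.85 over 0.10 to 2.20 in CAL27 tumors and from -0.38 over 0.68 to 0.83 in A431 tumors. In culture, CAL27 stood at -0.61 and -0.38 and A431 at 0.02 and -0.12. The SCC13 mean was 1.58 ± 2.35 with 11 of 16 tumors above the median gene (limma adjusted p = 0.00460). It was -0.04 relative to the non-targeting guides (limma adjusted p = 0.946). The mean was 0.15 ± 1.07 in CAL27 tumors (limma adjusted p = 0.769), 0.48 ± 0.45 in A431 tumors (limma adjusted p = 0.0976), -0.50 ± 0.16 in CAL27 cultures (limma adjusted p = 0.0442) and -0.05 ± 0.10 in A431 cultures (limma adjusted p = 0.787). Relative to the non-targeting guides NUSAP1 was lower in A431 cultures, at -0.42 (limma adjusted p = 0.0378).

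PLK1 fell in CAL27 tumors and CAL27 cultures. PLK1 encodes polo-like kinase 1, which acts in centrosome maturation, spindle assembly and cytokinesis (ENSG00000166851, chr16:23688977-23701688, plus strand, GRCh37). Its values ran from -3.42 over a median of -0.23 to 2.55 in SCC13 tumors, from -3.61 over -1.27 to 1.47 in CAL27 tumors, and from -5.87 over -0.91 to 0.60 in A431 tumors. The CAL27 cultures were at -0.38 and -0.41 and the A431 cultures at -0.02 and -0.98. The mean was -1.33 ± 1.39 in CAL27 tumors (9 of 10 below the median gene, limma adjusted p = 0.00968) and -0.39 ± 0.02 in CAL27 cultures (limma adjusted p = 0.0382). In A431 tumors value columns 6 and 7 stood at -5.87 and -5.82, while the other 6 tumors lay between -0.998 and 0.60. The A431 mean of -1.79 ± 2.56 did not pass (limma adjusted p = 0.0641), although it did relative to the non-targeting guides (-2.06, limma adjusted p = 0.0273) and divided by the column SD (limma adjusted p = 0.0307). The SCC13 mean was -0.26 ± 1.81 (limma adjusted p = 0.680), but PLK1 was lower there relative to the non-targeting guides, at -1.88 (limma adjusted p = 0.000711). The A431 cultures averaged -0.50 ± 0.68 (limma adjusted p = 0.311).

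BIRC5 stood in opposite directions in SCC13 and in the tumors of the other lines. BIRC5 encodes survivin, which brings the chromosomal passenger complex with the kinase Aurora B to centromeres (ENSG00000089685, chr17:76210267-76221717, plus strand, GRCh37). Its values ran from -3.08 over a median of 2.58 to 5.61 in SCC13 tumors, from -4.15 over -1.68 to 0.70 in CAL27 tumors, and from -2.78 over -1.29 to 0.96 in A431 tumors. The CAL27 cultures were at -0.79 and -0.46 and the A431 cultures at -0.05 and 0.09. The mean was 2.06 ± 2.31 in SCC13 tumors (14 of 16 above the median gene, limma adjusted p = 0.000237), -1.99 ± 1.43 in CAL27 tumors (9 of 10 below, limma adjusted p = 0.000404) and -1.25 ± 1.26 in A431 tumors (6 of 8 below, limma adjusted p = 0.0233). It was -0.62 ± 0.24 in CAL27 cultures (limma adjusted p = 0.0445) and 0.02 ± 0.10 in A431 cultures (limma adjusted p = 0.922). The A431 call was lost without value column 1, 3, 4 or 7, with limma adjusted p between 0.0504 and 0.0752.

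The SCC13 values of BIRC5 were lowest in the tumors with the fewest shared offsets and highest in those with the most. In value columns 8 and 5, with 8 and 13 genes at a shared offset, BIRC5 stood at -3.08 and -2.54. BIRC5 was itself at a shared offset in these 2 tumors. It had its own value only in value columns 4 and 6, at 1.19 and 3.68, both above the median gene. In the tumors with the most genes at a shared offset, value columns 3 and 7 with 136 and 145, BIRC5 stood at 5.61 and 4.51. This was not particular to BIRC5. In the same tumors PLK1 stood at 2.55 and 1.45, TPX2 at 1.40 and 0.75 and SMC4 at 2.10 and 0.06, all at a shared offset like BIRC5. CENPF lay below the median gene there, at -0.37 and -1.16. Without the 14 tumors that had over 50 genes at a shared offset, a choice made after the data were seen, the mean of the remaining 2 was -2.81 for BIRC5 (limma adjusted p = 0.0529), -3.76 for SMC4 (limma adjusted p = 0.0246), -5.20 for TPX2 (limma adjusted p = 0.0108) and -3.14 for PLK1 (limma adjusted p = 0.0373). In those 2 tumors MKI67 averaged 1.06 (limma adjusted p = 0.397), NUSAP1 0.28 (limma adjusted p = 0.827) and CENPF -0.26 (limma adjusted p = 0.858). Relative to the non-targeting guides BIRC5 averaged 0.44 over all 16 SCC13 tumors (limma adjusted p = 0.460).

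**Figure D2:**
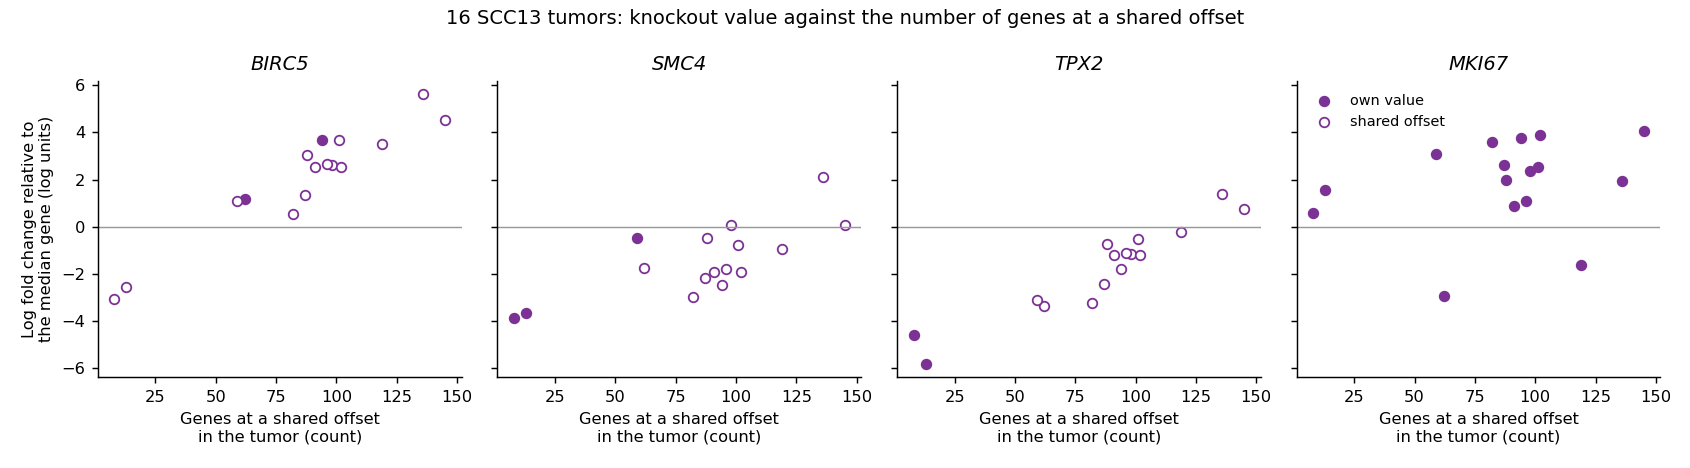
Log fold change relative to the median gene (log units) of BIRC5, SMC4, TPX2 and MKI67 knockouts in the 16 SCC13 tumors, against the number of the 327 genes at a shared offset in that tumor. Open points are shared offsets and filled points are the gene's own values. BIRC5 lies at -3.08 and -2.54 in the tumors with 8 and 13 such genes and at 5.61 and 4.51 in those with 136 and 145. Each of these values is a shared offset, and the own values of BIRC5 are 1.19 and 3.68.

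CENPF fell in SCC13 and A431 tumors. CENPF encodes a large coiled-coil protein of the outer kinetochore that binds microtubules (ENSG00000117724, chr1:214776528-214837917, plus strand, GRCh37). Its values ran from -5.18 over a median of -1.18 to 3.97 in SCC13 tumors, from -2.65 over -0.51 to 0.83 in CAL27 tumors, and from -1.70 over -1.06 to -0.43 in A431 tumors. The CAL27 cultures were at -0.03 and -0.32 and the A431 cultures at 0.35 and 0.03. Among the tumors, those of A431 were the tightest, with 8 of 8 below the median gene and a mean of -1.12 ± 0.48 (limma adjusted p = 0.00204). The mean was -1.37 ± 2.67 in SCC13 tumors (12 of 16 below, limma adjusted p = 0.0175) and -0.79 ± 0.99 in CAL27 tumors (9 of 10 below, limma adjusted p = 0.0645). The SCC13 call was lost without value column 1, 2 or 10, with limma adjusted p between 0.0577 and 0.0754, as it was by the exact sign-flip test (adjusted p = 0.114). CAL27 tumors passed without value column 3 (limma adjusted p = 0.0236), divided by the column SD (limma adjusted p = 0.0415) and on the deposited scale of the non-targeting guides (-1.60, limma adjusted p = 0.000713). In the cultures the mean was -0.17 ± 0.20 in CAL27 (limma adjusted p = 0.302) and 0.19 ± 0.23 in A431 (limma adjusted p = 0.399).

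Counted by table, 3 of the 8 genes were lower in SCC13 tumors, where 23.9% of all genes were, and 3 were higher, where 23.5% were. In CAL27 tumors 4 were lower against 22% of all genes, and 1 was higher against 18.7%. In A431 tumors 3 were lower against 11.9%, and 0 were higher against 7.95%, with 1 higher at an unadjusted p under 0.05. The exact sign-flip test called none of the 3 in A431 tumors, with adjusted p = 0.0655 for SMC4 and CENPF and 0.117 for BIRC5. In CAL27 cultures 5 were lower against 18.7%, and 0 were higher against 4.89%. Divided by the column SD, SMC4 (limma adjusted p = 0.0535), BIRC5 (0.0639) and NUSAP1 (0.0609) no longer passed in CAL27 cultures. In A431 cultures 1 was lower against 11.3%, and 0 were higher against 2.14%. In both cultures 0 were higher at an unadjusted p under 0.05 as well. Relative to the non-targeting guides, 4 of the 8 were lower in SCC13 tumors against 67.3% of all genes, 6 in CAL27 tumors against 50.2%, 4 in A431 tumors against 22.3%, 8 in CAL27 cultures against 89.6% and 6 in A431 cultures against 41.6%. By limma 0 of the 8 were higher in any table, while 3.98% of all genes were in SCC13 tumors, 5.5% in CAL27 tumors, 2.14% in A431 tumors, 0% in CAL27 cultures and 0.306% in A431 cultures.

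In CAL27, tumors were set against cultures in 1 fit that gave each group its own spread. SMC4 was lower in tumors (mean -3.91, against -1.88 in cultures, difference -2.03, SE 0.47, limma adjusted p = 0.00348, exact permutation p = 0.0455 unadjusted). BIRC5 (difference -1.37, SE 0.44) and TPX2 (-1.40, SE 0.45) were also lower in tumors, both with a limma adjusted p = 0.0236, and MKI67 was higher (1.01, SE 0.34, limma adjusted p = 0.0333). The MKI67 difference relative to the non-targeting guides was 0.67 and did not pass (limma adjusted p = 0.146), while that of PLK1 did (-1.27, limma adjusted p = 0.0294). The exact permutation p was 0.227 for BIRC5, 0.258 for TPX2 and 0.152 for MKI67, where 10 tumors against 2 cultures can reach 0.0152. The tumors and the cultures overlapped for each of these 4 genes. Together 3 of 8 genes were lower, against 14.4% of all genes, and 1 was higher, against 16.5%. The BIRC5 call was lost without tumor value column 2 or 8, that of TPX2 without 2 or 9 and that of MKI67 without 2, 7, 9 or 10, with limma adjusted p between 0.0511 and 0.0703. Without either culture a single culture is left, which 1 spread for all groups then assumes to vary like the tumors, and all 4 calls were lost (limma adjusted p of 0.982 and 0.988), with SMC4 at -1.49 and -2.57. PLK1 passed without tumor value column 10 (-1.25, limma adjusted p = 0.0218). The differences of TOP2A (0.16), NUSAP1 (0.65), PLK1 (-0.94) and CENPF (-0.62) did not pass.

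In A431, CENPF was lower in tumors than in cultures and the groups did not overlap. Its difference was -1.31 (SE 0.24, limma adjusted p = 0.00313). The exact permutation p of 0.0222, unadjusted, is the smallest that 8 tumors against 2 cultures allow. Overlap was examined for the members only, so the share of all genes without overlap is unknown. It was the 1 member lower, against 3.36% of all genes, and 0 were higher, against 4.28%, with 1, NUSAP1, at an unadjusted p under 0.05. BIRC5 had a difference of -1.27 (SE 0.42, limma adjusted p = 0.0768), SMC4 of -0.97 (SE 0.45) and PLK1 of -1.29 (SE 0.81), none past the threshold. BIRC5 passed without tumor value column 5 (-1.59, limma adjusted p = 0.0107), and the CENPF call was lost without either culture, where 1 spread is used (limma adjusted p of 0.999 and 0.997).

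These calls between settings rest on the separate spread of each group. With 1 spread for all groups limma called 0 of the 327 genes in either line, with 30 at an unadjusted p under 0.05 in CAL27 and 20 in A431. Divided by each column's SD, the SMC4 difference in CAL27 turned to 0.84 column SDs (limma adjusted p = 0.164). In that setting BIRC5 stood at -0.07 (limma adjusted p = 0.903), TPX2 at -0.11 (limma adjusted p = 0.843) and MKI67 at 0.59 (limma adjusted p = 0.0991), so that all 4 CAL27 calls were lost. NUSAP1 (0.90, limma adjusted p = 0.0209) and TOP2A (0.81, limma adjusted p = 0.0385) became higher in CAL27 tumors instead. As given above, the SD over genes was 1.09 or more in CAL27 tumors and 0.59 or less in the cultures. Tested directly, the difference between tumors and cultures differed between CAL27 and A431 for 0 of 8 genes, lower or higher, against 7.03% and 6.12% of all genes, with 1, TPX2, at an unadjusted p under 0.05 (difference -1.60, 95% interval -2.99 to -0.21). TPX2 passed that test relative to the non-targeting guides (-2.03, limma adjusted p = 0.0375) and without A431 tumor value column 2 (-2.01, limma adjusted p = 0.0165), and CENPF passed it divided by the column SD (1.44, limma adjusted p = 0.0467). CAL27 cultures differed from A431 cultures for 0 of 8 genes, against 2.75% lower and 0.306% higher of all genes. There BIRC5 (-0.64) and NUSAP1 (-0.45) were the 2 lower at an unadjusted p under 0.05, and with 1 spread limma also called 0 of the 8.

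**Figure D3:**
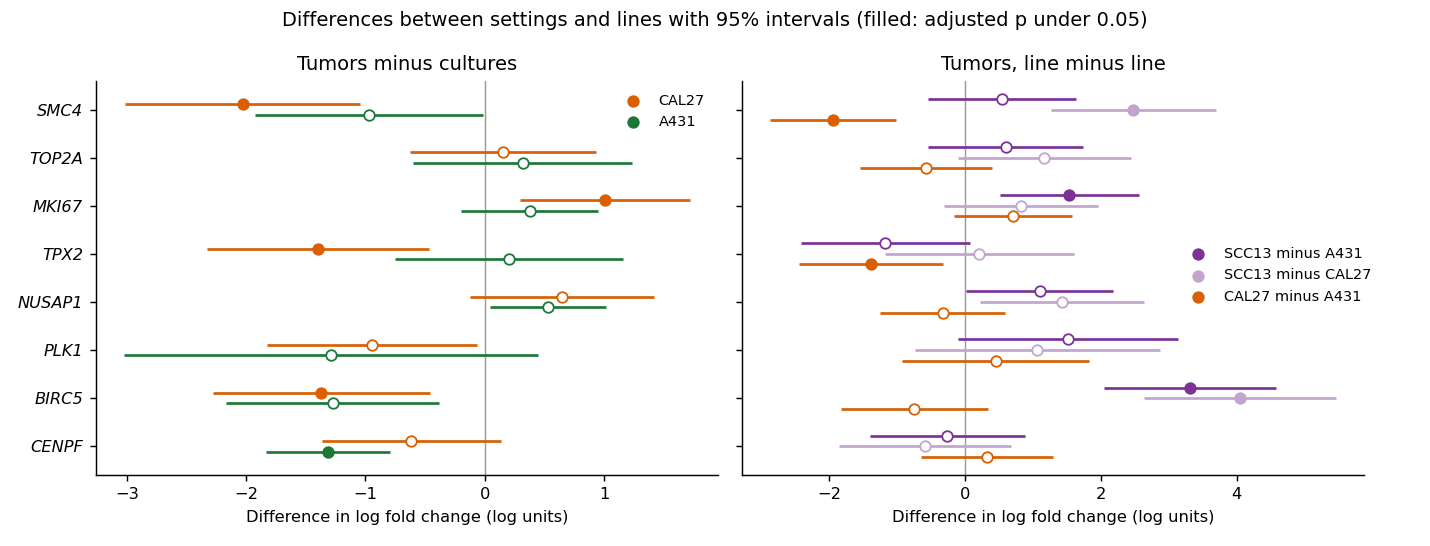
Differences in log fold change (log units) with 95% intervals for the 8 genes, tumors minus cultures on the left and line minus line among tumors on the right. Filled points passed a limma adjusted p of 0.05. Filled on the left are CENPF in A431 at -1.31 and SMC4, TPX2, BIRC5 and MKI67 in CAL27 at -2.03, -1.40, -1.37 and 1.01. On the right BIRC5 stands out at 3.31 and 4.05 with SCC13 first.

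Among tumors, BIRC5 and SMC4 differed most between lines. BIRC5 was higher in SCC13 than in A431 tumors by 3.31 (SE 0.63, limma adjusted p = 6.90e-05) and higher than in CAL27 tumors by 4.05 (SE 0.70, limma adjusted p = 2.64e-05). MKI67 was higher in SCC13 than in A431 tumors by 1.54 (SE 0.51, limma adjusted p = 0.0175). That call was lost relative to the non-targeting guides (0.20, limma adjusted p = 0.764), divided by the column SD (0.43, limma adjusted p = 0.426) and with 1 spread (limma adjusted p = 0.0755). SMC4 was higher in SCC13 than in CAL27 tumors by 2.48 (SE 0.60, limma adjusted p = 0.00227). In SCC13 tumors BIRC5 was at a shared offset in 14 of 16 and SMC4 in 13. Whether those values are bounds was not tested. So 2 of 8 genes were higher in SCC13 than in A431, against 15.3% of all genes, and 2 were higher than in CAL27, against 10.1%. In both contrasts 0 were lower, against 12.5% and 7.95% of all genes, and 0 had an unadjusted p under 0.05 in that direction, also with 1 spread. However, relative to the non-targeting guides, TPX2 (-2.51, limma adjusted p = 0.00152) and CENPF (-1.60, limma adjusted p = 0.0273) were lower in SCC13 than in A431 tumors. On that scale 167 of all genes were lower in this contrast, so the calls were not particular to these 2 members. Relative to the median gene, TPX2 also passed without A431 value column 2 (-1.58, limma adjusted p = 0.0283). Divided by the column SD, PLK1 (1.55, limma adjusted p = 0.0175) and SMC4 (1.73, limma adjusted p = 0.000825) became higher in SCC13 than in A431. NUSAP1 became higher in SCC13 than in CAL27 tumors without SCC13 value column 2 (1.67, limma adjusted p = 0.0437) or CAL27 value column 3 (1.66, limma adjusted p = 0.0426).

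None of these 4 differences passed in the 2 SCC13 tumors with few shared offsets. There BIRC5 was at -1.56 against A431 and -0.82 against CAL27, MKI67 at 0.76 against A431 and SMC4 at 0.15 against CAL27, with limma adjusted p of 0.431, 0.710, 0.629 and 0.943. BIRC5 was itself at a shared offset in both of these tumors. TPX2 gained a call in that setting, at -4.60 against A431 tumors (limma adjusted p = 0.00513).

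Between the lines grown in the same mouse strain, SMC4 was lower in CAL27 than in A431 tumors (difference -1.94, SE 0.46, limma adjusted p = 0.00141), as was TPX2 (-1.38, SE 0.53, limma adjusted p = 0.0497). These were the 2 lower genes of 8, against 14.7% of all genes, and 0 were higher, against 8.56%, with 0 at an unadjusted p under 0.05. Divided by each column's SD the SMC4 difference was -0.05 column SDs (limma adjusted p = 0.955) and that of TPX2 -0.39 (limma adjusted p = 0.595). With 1 spread neither passed (limma adjusted p = 0.0810 for SMC4 and 0.310 for TPX2). The TPX2 call was also lost when any 1 of 12 of the 18 tumors was left out, CAL27 value columns 2, 3, 4, 6, 7 and 9 or A431 value columns 1, 3, 4, 6, 7 and 8, with limma adjusted p between 0.0597 and 0.135.

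Some other genes of mitosis and some of DNA replication were also lower in each table. Of 21 mitotic partners, such as cyclins, tubulins and enzymes of the anaphase-promoting complex, 11 were lower and 3 higher in SCC13 tumors, 12 and 1 in CAL27 tumors, 6 and 1 in A431 tumors, 10 and 0 in CAL27 cultures, and 5 and 0 in A431 cultures. Their median value was -1.21 in SCC13 tumors, -0.98 in CAL27 tumors, -0.17 in A431 tumors, -0.49 in CAL27 cultures and -0.11 in A431 cultures. The median of the 8 genes was 0.22 in SCC13 tumors, -1.06 in CAL27 tumors, -0.86 in A431 tumors, -0.54 in CAL27 cultures and -0.15 in A431 cultures, while that of all genes stayed between -0.02 and 0.02. These counts and medians describe the lists, and the lists were not tested against each other.

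Among the partners, CCNB1, the mitotic cyclin B1 that activates CDK1, was lowest in SCC13 tumors at -3.27 (SE 0.45, limma adjusted p = 3.53e-09). UBE2C, the enzyme that starts ubiquitin chains for the anaphase-promoting complex, was at -2.02 in SCC13 tumors, -1.77 in A431 tumors and -1.40 in CAL27 cultures, each past the threshold. UBE2S, which extends those chains, was at -2.59 in CAL27 tumors. The beta-tubulin TUBB was lowest in CAL27 tumors at -3.02 and in A431 tumors at -1.95. Its relative TUBB4B stood at 2.52 in SCC13 tumors and 0.93 in A431 tumors, against -2.17 in CAL27 tumors. CKS2, a small partner of CDK1, was among the few that were higher, at 1.10 in SCC13 tumors and 0.95 in CAL27 tumors.

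Of 12 replication genes, 8 were lower and 0 higher in SCC13 tumors, 9 and 1 in CAL27 tumors, 5 and 0 in A431 tumors, 10 and 0 in CAL27 cultures and 8 and 0 in A431 cultures. Their median was -2.17 in SCC13 tumors, -2.50 in CAL27 tumors, -0.84 in A431 tumors, -1.48 in CAL27 cultures and -0.95 in A431 cultures. DUT, which removes dUTP from the nucleotide pool, stood at -5.36 in CAL27 tumors, -3.51 in SCC13 tumors, -3.00 in CAL27 cultures and -2.13 in A431 cultures. DNMT1, which copies DNA methylation after replication, was at -3.64 in CAL27 tumors, -3.53 in SCC13 tumors and -1.57 in A431 tumors. SMC4 at -3.91 in CAL27 tumors lay among these values.

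**Figure D4:**
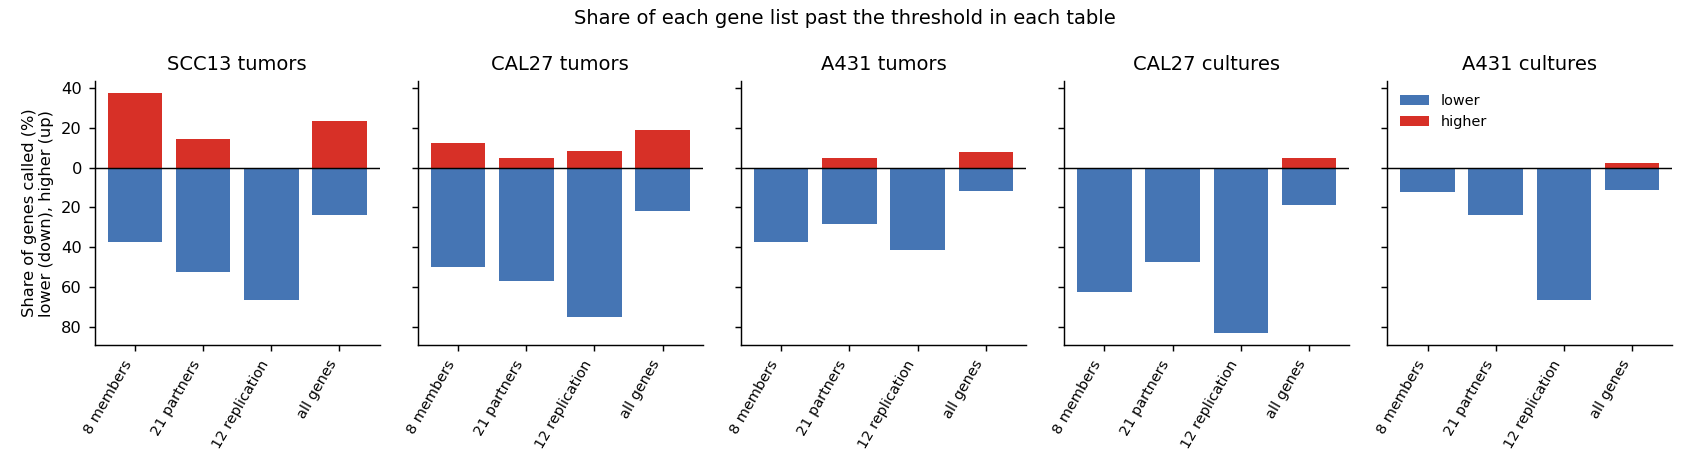
Share of genes (percent) called lower (drawn downward) and higher (upward) at a limma adjusted p under 0.05 in each table, for the 8 genes, 21 mitotic partners, 12 replication genes and all 327 genes. In CAL27 cultures 5 of 8 genes and 10 of 12 replication genes were lower, against 18.7% of all genes.

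Over the 5 group means, each divided by the SD of that group's means over all genes, the gene nearest to SMC4 by root mean square difference was PFN1, the actin-binding profilin (0.509 SD), followed by the replicative helicase subunit MCM5. PFN1 stood at -2.89 in SCC13 tumors, -3.98 in CAL27 tumors, -2.07 in A431 tumors, -2.02 in CAL27 cultures and -1.27 in A431 cultures. The nearest gene to CENPF was CCNB2, another mitotic cyclin B (0.380 SD), and to NUSAP1 it was ARL6IP1 (0.352 SD). TPX2 was nearest to IFITM3 (0.109 SD) and then to RRM2, MKI67 to GRHL1 (0.154 SD), TOP2A to CREB1 (0.254 SD), PLK1 to the tetraspanin CD151 (0.520 SD) and BIRC5 to RFX5 (0.646 SD). For comparison, the median distance of a member to the other genes ranged from 0.834 SD for MKI67 to 2.71 SD for SMC4. These are likenesses over 5 values that share their lines.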

How the data were processed

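The authors deposited 5 tables without a header line, 1 per line and setting, of log fold changes, with 1 value per gene and later sample; no counts were used, so depth is unknown. The log base, the guide summary and the build of these deposited values were named by no source used here. They are relative to a row of non-targeting guides at 0. Bowtie2 was used, per the submitters' processing notes. Columns carry no replicate names, so a value column stands for 1 tumor or culture of its group, in the order of the table. The 327 genes were centred on each column's median. Each table was fitted with limma 3.58.1 in R 4.3.3 (intercept, eBayes, two-sided), and groups were compared with a spread per group (arrayWeights), with Benjamini-Hochberg adjustment over all genes at 0.05. Comparisons across tables assume 1 log base and guide summary. Exact permutation tests (two-sided) over tumors or cultures were run for single genes. Initial cells are shared within a table and their error is in no test. Whether tumors shared a mouse or cultures were separate is not stated, so each p-value reflects the spread among these samples alone, which may be technical. The members and lists were chosen with earlier results of these data known. All members are named. Of the 3 lowest and 3 highest called genes of each list and the 2 nearest genes per member, only some are named in the text. On simulated data for 327 genes, a change of 2 log units was recovered for 90% of genes in SCC13 tumors, 90% in CAL27 tumors, 100% in A431 tumors, 90% in CAL27 cultures and 95% in A431 cultures. For a change of 1 it was 30%, 45%, 70%, 80% and 80% in the same order. In CAL27 minus A431 tumors a change of 1 was recovered for 0% and of 2 for 100%. For the interaction of line and setting these shares were 15% and 65%. The simulated noise was independent between genes, so it held no shared offsets. Gene coordinates are from GENCODE on GRCh37. No guide or protein sequences were used.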

Additional observations from a re-analysis of the deposited data

Results flagged for a closer look

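The tumors of different lines differed for 4 of the genes by a direct limma test of the difference. BIRC5 was higher in SCC13 tumors than in A431 tumors (difference 3.31) and than in CAL27 tumors (4.05). MKI67 was higher in SCC13 than in A431 tumors (1.54), a call lost relative to the non-targeting guides (0.20, limma adjusted p = 0.764) and divided by the column SD (0.43, limma adjusted p = 0.426). SMC4 was higher in SCC13 than in CAL27 tumors (2.48). SMC4 (-1.94) and TPX2 (-1.38) were lower in CAL27 than in A431 tumors. In the SCC13 tumors, BIRC5 was at a shared offset in 14 of 16, SMC4 in 13 and MKI67 in 0, and the part of shared offsets, host strain and column spread in these differences was not tested. A test for a single tumor standing apart from its group was run 16 times, counted over genes and groups, and 0 were positive. That is too few to cover every gene in the tumors of all lines, so nothing is concluded from it for SCC13 tumors. A pair of low tumors, such as PLK1 at -5.87 and -5.82 in A431 value columns 6 and 7, is not a single tumor standing apart.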

How the results depend on the processing

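Of 1616 recomputed values of single genes, 1452 kept their direction and their side of the threshold. With their direction kept, 68 lost the call and 33 gained it. Another 63 changed sign, and some of these lost a call as well. The cause was not tested. No paired analysis was possible because the value columns carry no replicate numbers. A robust eBayes prior was a further alternative and moved none of the counts of called genes by over 1.5 times. A culture table without 1 of its 2 cultures gives no value. The exact sign-flip test called 0 of the 8 genes in A431 tumors, and 0 of 327, its smallest p there being 0.0078. In the next sentences, numbers in brackets count all 327 genes. Relative to the non-targeting guides, the lower genes became 6 in A431 cultures (136) and 8 in CAL27 cultures (293). They became 2 in SCC13 minus A431 tumors (167) and 1 in the interaction of line and setting (42). The higher genes became 0 in CAL27 tumors (18), SCC13 tumors (13) and CAL27 tumors minus cultures (29) and 1 in SCC13 minus A431 (9). Divided by the column SD, lower genes became 2 in CAL27 cultures (49), 0 in CAL27 tumors minus cultures (18) and 0 in CAL27 minus A431 tumors (21). Higher genes became 2 in CAL27 tumors minus cultures (66) and 1 in the interaction (7). With 1 spread, 0 were lower in tumors minus cultures of either line (0 in each) and in CAL27 minus A431 tumors (10). In that setting 0 were higher in CAL27 tumors minus cultures (0) and 1 in SCC13 minus A431 (34). Without the 14 SCC13 tumors with over 50 shared offsets, chosen after seeing the data, 0 were higher in SCC13 tumors and in both SCC13 differences. In each of these 1 of all 327 genes was higher. There 1 member was lower in SCC13 minus A431, against 26 of all 327 genes.

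Leaving out single columns gave 2 to 3 lower in A431 tumors, 4 to 5 in CAL27 tumors, 2 to 3 in SCC13 tumors, 0 to 2 in A431 and 0 to 4 in CAL27 tumors minus cultures, 1 to 2 in CAL27 minus A431 tumors, 0 to 1 in SCC13 minus A431 tumors and 0 to 1 in the interaction, and 0 to 1 higher in CAL27 tumors minus cultures and 2 to 3 in SCC13 minus CAL27.

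Signs that changed relative to the non-targeting guides were TOP2A at -0.18 in A431, -0.92 in SCC13 tumors, -0.18 in CAL27 tumors minus cultures and -0.74 in SCC13 minus A431 tumors; NUSAP1 at -0.66 in CAL27, -0.037 in SCC13 tumors, -0.24 in SCC13 minus A431 tumors and -0.30 in the interaction; BIRC5 at -0.34 and CENPF at -0.17 in A431 cultures; PLK1 at -0.0071 and MKI67 at -0.038 in CAL27 minus A431 cultures; PLK1 at -0.081 and CENPF at -0.21 in CAL27 minus A431 tumors; SMC4 at -0.80 in SCC13 minus A431 tumors; TPX2 at -0.59 in SCC13 minus CAL27 tumors; and PLK1 at -0.074 in the interaction. Divided by the column SD they were SMC4 at 0.84 in CAL27 tumors minus cultures, BIRC5 at 0.50 in CAL27 minus A431 tumors, CENPF at 0.71 in SCC13 minus A431 tumors, and BIRC5 at 1.62, SMC4 at 1.19 and TOP2A at 0.097 in the interaction. Without the 14 SCC13 tumors they were BIRC5 at -2.81 and TOP2A at -0.78 in SCC13 tumors, BIRC5 at -1.56, PLK1 at -1.35, CENPF at 0.86, NUSAP1 at -0.20, SMC4 at -1.78 and TOP2A at -0.87 against A431, and BIRC5 at -0.82, PLK1 at -1.81, TPX2 at -3.21, CENPF at 0.53 and TOP2A at -0.31 against CAL27. Leaving out single columns, signs changed for TOP2A in A431 tumors (-0.10 to 0.41), NUSAP1 in CAL27 tumors (-0.074 to 0.37), TPX2 in A431 tumors minus cultures (-0.034 to 0.61), TOP2A in CAL27 tumors minus cultures (-0.091 to 0.40), PLK1 (-0.37 to 0.59) and MKI67 (-0.013 to 0.17) in CAL27 minus A431 cultures, PLK1 in CAL27 minus A431 tumors (-0.13 to 0.80), TPX2 in SCC13 minus CAL27 tumors (-0.026 to 0.48), and BIRC5 (-0.40 to 0.22), NUSAP1 (-0.11 to 0.34), TOP2A (-0.48 to 0.090) and PLK1 (-0.24 to 0.82) in the interaction. Of all these sign changes, BIRC5 in SCC13 tumors and its 2 line differences, NUSAP1 in SCC13 tumors, and SMC4 in CAL27 tumors minus cultures, had passed the threshold beforehand.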
